A study of Mus musculus with 80 samples.

Results

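Chromosome 3 carried 628 of the 10785 reporters that passed a minimum of 10 DNA counts in each of the 8 DNA libraries of their pool. They were chosen by chromosome and by this minimum, and the chromosome itself was selected on its level without doxycycline (dox), the lowest of the 19 autosomes. That level is therefore given as a description, with no test. The deposited table lists 637 reporters on chromosome 3, of which 9 fell below the minimum. The 628 came from 4 pools of cells, with 135 in pool A, 135 in pool B, 183 in pool C and 175 in pool D.

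The cells were EBRTcH3, mouse embryonic stem cells in which the endogenous ROSA26 promoter drives the tetracycline-controlled transactivator, tTA. Every group shares this background and carries barcoded piggyBac tet-Off reporters, although the growth and treatment protocols also mention an mPGK promoter. Each pool was divided into 2 cultures, which the labels call technical replicates, and each culture was split again over no dox and doses of 0.01 ng/ml, 0.1 ng/ml and 100 ng/ml for 72 h before RNA and genomic DNA were taken. The pools were grown from cells sorted for low eGFP, so the reporters come from that fraction only. P-values from the 2 cultures measure only the spread between them, which is technical.

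In a tet-Off system the transactivator binds its operators in front of the reporter and drives transcription, and dox takes it off the DNA. Many integration sites can be read in parallel because each carries its own barcode, counted in RNA and in genomic DNA. Transcription of an inserted gene is known to depend on the chromatin around it, a behaviour called position effect, and large stretches of closed, late-replicating chromatin are known to hold inserted genes low. Chromatin was not measured here.

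A reporter's level is the log2 ratio of its RNA share to its DNA share of the library totals, computed with 1 count added to each and averaged over both cultures. It is set so that the mean of all reporters of the pool at that dose is 0. A level of 1 at 100 ng/ml thus says that a reporter lay above its pool at that dose, and not that its RNA was as high as before. Where no RNA was counted, the level follows from the added count, the DNA count and the library totals. At 100 ng/ml this held in both cultures for 53.5% of chromosome 3 reporters. Mean levels and correlations of levels at that dose therefore rest partly on DNA counts. Positions are as deposited, in mm9, and the gene, exon or intron at each site was not analysed here.

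The reporters with the highest levels at 100 ng/ml are shown by their barcodes. These are the only sequences that tell them apart in the RNA. They are written whole, in lower case, in falling order of level.

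Pool A, chr3:135208579, minus strand: actgcctatacagtgg

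Pool B, chr3:133205607, minus strand: tccgtcctagcagttt

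Pool B, chr3:129237540, minus strand: gtatagaacggttcat

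Pool A, chr3:33933866, plus strand: gttcgtatttacgagc

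Pool B, chr3:133178175, plus strand: ggaggtatcatcctaa

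Pool A, chr3:34559644, minus strand: ccagtactcacgtctc

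Pool D, chr3:9112108, plus strand: tagacttttatgagac

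Pool C, chr3:103009786, minus strand: cacgtgactacggggc

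None of these 8 barcodes occurred in a second pool, whereas 38 of the 628 did, at another position. By the labels, pools A and C used the same index sequences, as did B and D, and the part of misassigned reads was not tested. The depth was 729552 to 1840870 counts per RNA library and 928128 to 1571280 per DNA library. Median RNA counts of chromosome 3 reporters ranged over libraries from 125 to 270 without dox and were 0 in every library at 100 ng/ml. Median DNA counts at 100 ng/ml were 240 to 525.

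Without dox, chromosome 3 lay below the other autosomes by nearly the same amount in every pool. Its mean level was -0.47 in pool A, -0.48 in pool B, -0.51 in pool C and -0.53 in pool D, against 0.04 to 0.05 for the 9948 reporters on the other autosomes. The difference averaged -0.54 ± 0.03 (SD, n = 4 pools). Chromosome 1 came next among the autosomes with a mean of -0.30, and X lay at -0.58. DNA abundance did not separate chromosome 3 in the same way. Its mean log2 DNA abundance, as library-scaled counts, differed from the other autosomes by 0.04 ± 0.10 (SD, n = 4 pools, exact two-sided sign-flip permutation test over pools, p = 0.5, adjusted p = 0.5 over 7 such tests). With 4 pools the smallest p this test can give is 0.125, so no comparison over pools could reach 0.05. The 7 include 1 on held-out levels without dox, given below only as a description. The adjusted p-values over pools thus depend partly on levels that chose the chromosome.

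The low level was not spread evenly along the chromosome. Reporters span from position 3610650 to 159594015 with a median spacing of 134 kb. A low domain was defined as a stretch in which the mean level of 9 neighbouring reporters was at or below -1 without dox. Such domains held 219 reporters in 22 stretches, and 13 of these had at least 5 reporters. Inside, the mean level was -2.05, and outside it was 0.34. Because the domains were drawn from these levels, that contrast describes the rule.

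**Figure D1:**
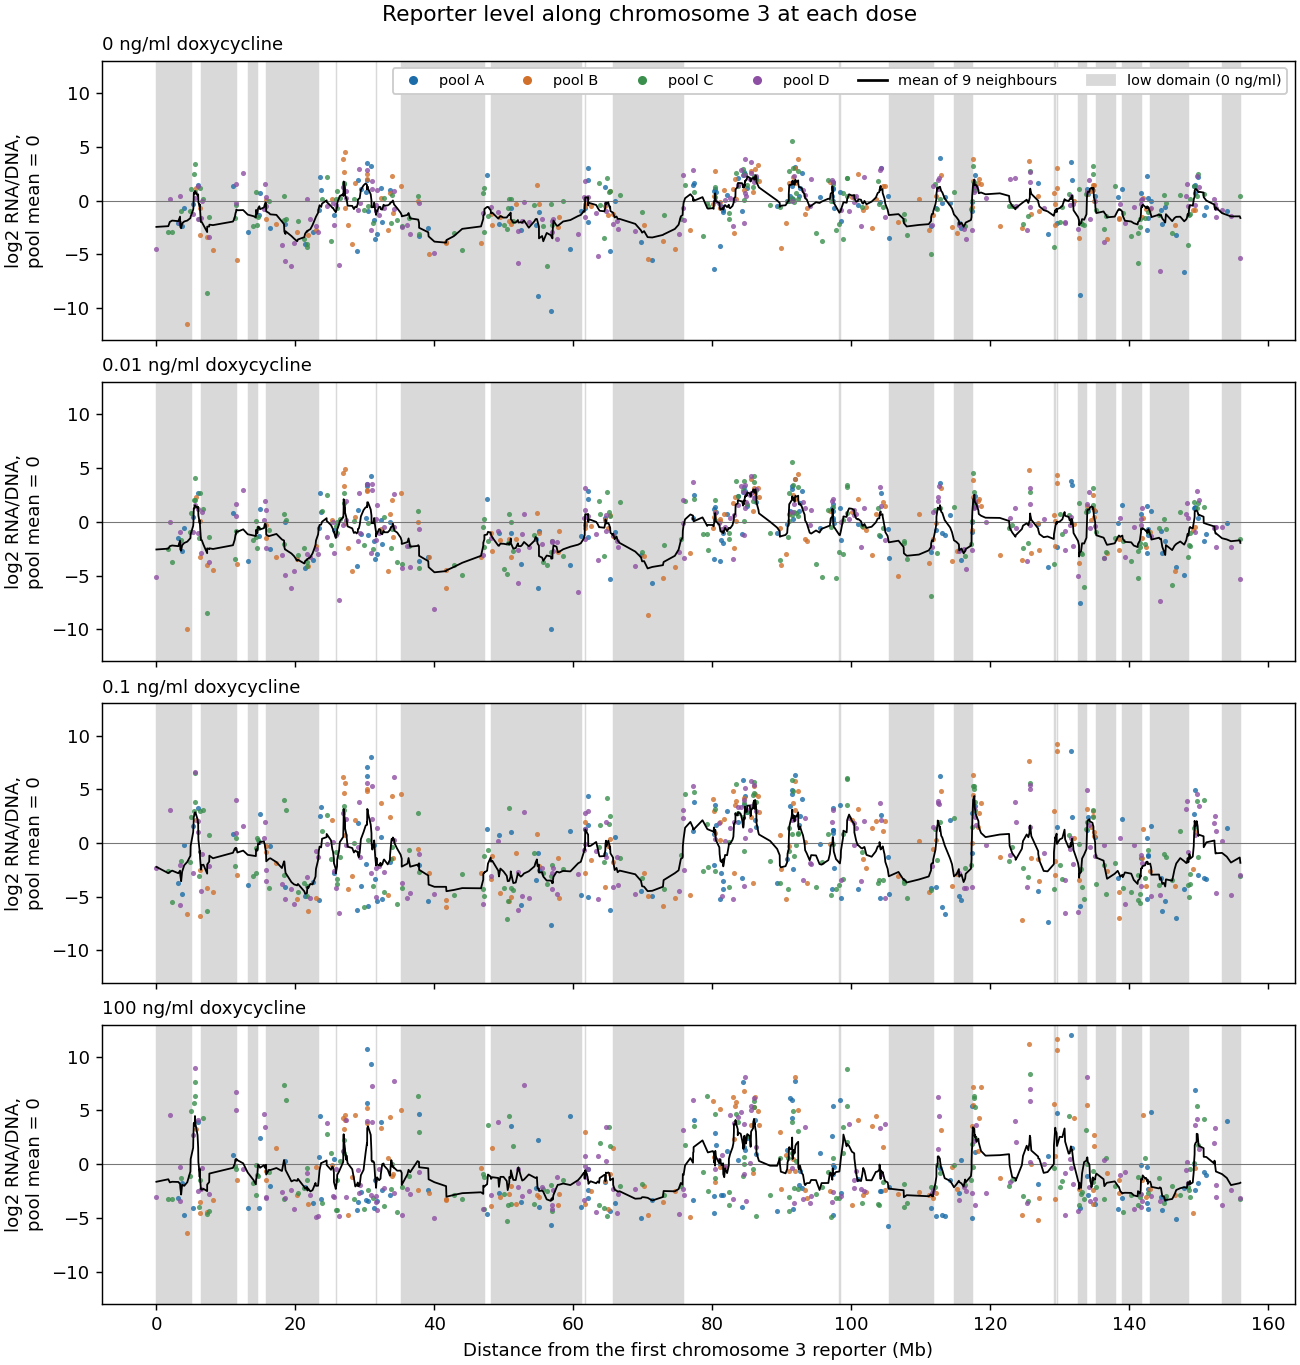
Level of each of the 628 reporters (log2 RNA/DNA, pool mean set to 0) against distance from the first chromosome 3 reporter in Mb, with 1 panel per dox dose. Points are reporters coloured by pool, the line is the mean of 9 neighbours and grey marks the 22 low domains found at 0 ng/ml. Each of the 13 stretches with at least 5 reporters had a mean below 0 at every dose, while 4 stretches of 1 or 2 reporters had a mean above 0 at 100 ng/ml.

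The share of reporters inside low domains set chromosome 3 apart from other autosomes more than the depth of the domains did. With the same rule, 34.9% of chromosome 3 reporters lay inside a low domain, against 18.5% on the other autosomes together and 5.92% to 28.9% on any 1 of them. The mean level inside was -2.05 on chromosome 3 and -1.86 elsewhere, and outside it was 0.34 and 0.48. Measured from the mean of all reporters on the other autosomes, 0.05, the difference of -0.54 divides into -0.73 inside low domains and 0.19 outside. The rule makes the inside part negative on any autosome. Reporters outside low domains were not higher on chromosome 3 than elsewhere, so the 0.19 does not mark a gain over other autosomes. These shares come from the values that selected the chromosome and carry no test.

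**Figure D2:**
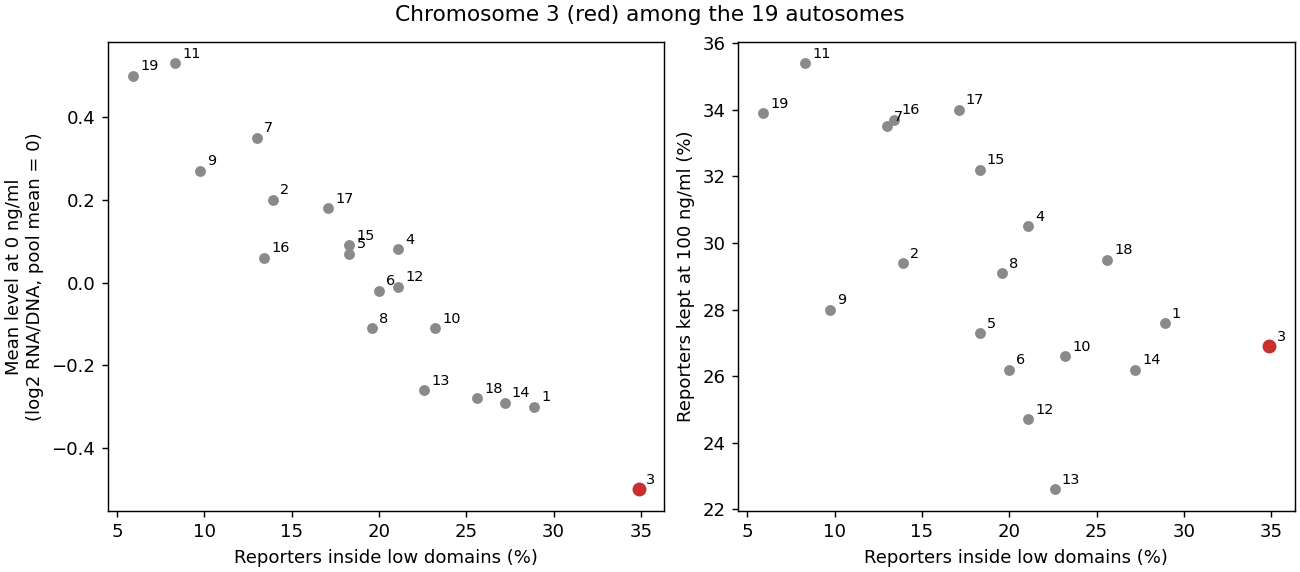
Mean level at 0 ng/ml (left, log2 RNA/DNA) and percent of reporters kept at 100 ng/ml (right) against the percent of reporters inside low domains, for the 19 autosomes. Each point is 1 autosome and chromosome 3 is red, at 34.9% inside, a mean level of -0.50 and 26.9% kept.

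Measured from the mean of all reporters on other autosomes, the 5 domains with the largest contributions summed to most of the difference. Together they held 127 reporters, 20.2% of the chromosome, over 47.9 Mb, and contributed -0.45. They were picked for their size, and the other autosomes kept their own low domains in this comparison.

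The largest contribution came from chr3:51768361-64685301, with 43 reporters and a contribution of -0.150. Its mean level without dox was -3.73 in pool A, -1.22 in pool B, -1.55 in pool C and -2.26 in pool D, so all 4 pools were low there and pool A was lowest. Only 3 of the 43 lay above their pool's mean. With 100 ng/ml 32 had no RNA in either culture and 8 had kept RNA, meaning at least 10 counts in both cultures.

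The domain at chr3:19420344-26878159 was the deepest of the 5, with a mean of -2.62 over 25 reporters and a contribution of -0.106. Its pool means lay between -2.90 and -2.12. Of its 25 reporters, 19 had lost all RNA counts at 100 ng/ml and 2 kept RNA. The stretch at chr3:38759845-50807117 covered 12.0 Mb with only 22 reporters, a mean of -2.18 and a contribution of -0.078. It kept RNA at 4 sites.

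The domain at chr3:69323913-79332276 had 18 reporters with a mean of -2.42 and contributed -0.071. Within it 15 reporters had lost all RNA at 100 ng/ml, and from 69553905 to 78756785 a row of 14 neighbours from 4 pools gave no RNA count. The last of the 5, at chr3:146613444-152114208, had 19 reporters with a mean of -1.58 and contributed -0.049. It kept RNA at 1 site.

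Single reporters inside these domains still differed widely. In the largest, the highest was the pool B reporter at 58360612, with 248 and 312 RNA counts over 117 and 240 DNA counts without dox. The lowest was the pool A reporter at 60373794, which had 0 RNA counts in all 8 RNA libraries over 1730 to 2684 DNA counts. Both sit within the same grey stretch of the plot along the chromosome.

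The lowest reporter of the chromosome with at least 100 DNA counts was in pool B at 8053403. It had 0 and 0 RNA counts without dox over 4367 and 5174 DNA counts. Its later counts were 3 and 0 at 0.01 ng/ml, 0 and 18 at 0.1 ng/ml and 0 and 0 at 100 ng/ml. Since 8053403 and 60373794 both had no RNA count without dox, their order follows from DNA counts and the added count. Next to 60373794 in this order came pool A at 58459547, with 2 and 13 RNA counts over 5258 and 5049 DNA counts.

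Fewer stretches pulled the chromosome up. Over fixed 5 Mb windows, the largest positive contribution was 0.090 from chr3:85000001-90000000, where 49 reporters had a mean of 1.20. Its pool means were 1.15, 1.08, 1.31 and 1.24, a range narrower than in any of the 5 domains. The windows at chr3:95000001-100000000 and chr3:30000001-35000000 added 0.047 and 0.033, with means of 1.06 over 29 reporters and 0.64 over 35. Windows with more reporters were also the higher ones (Spearman's rho 0.75 over 32 windows, a description across windows that share libraries).

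**Figure D3:**
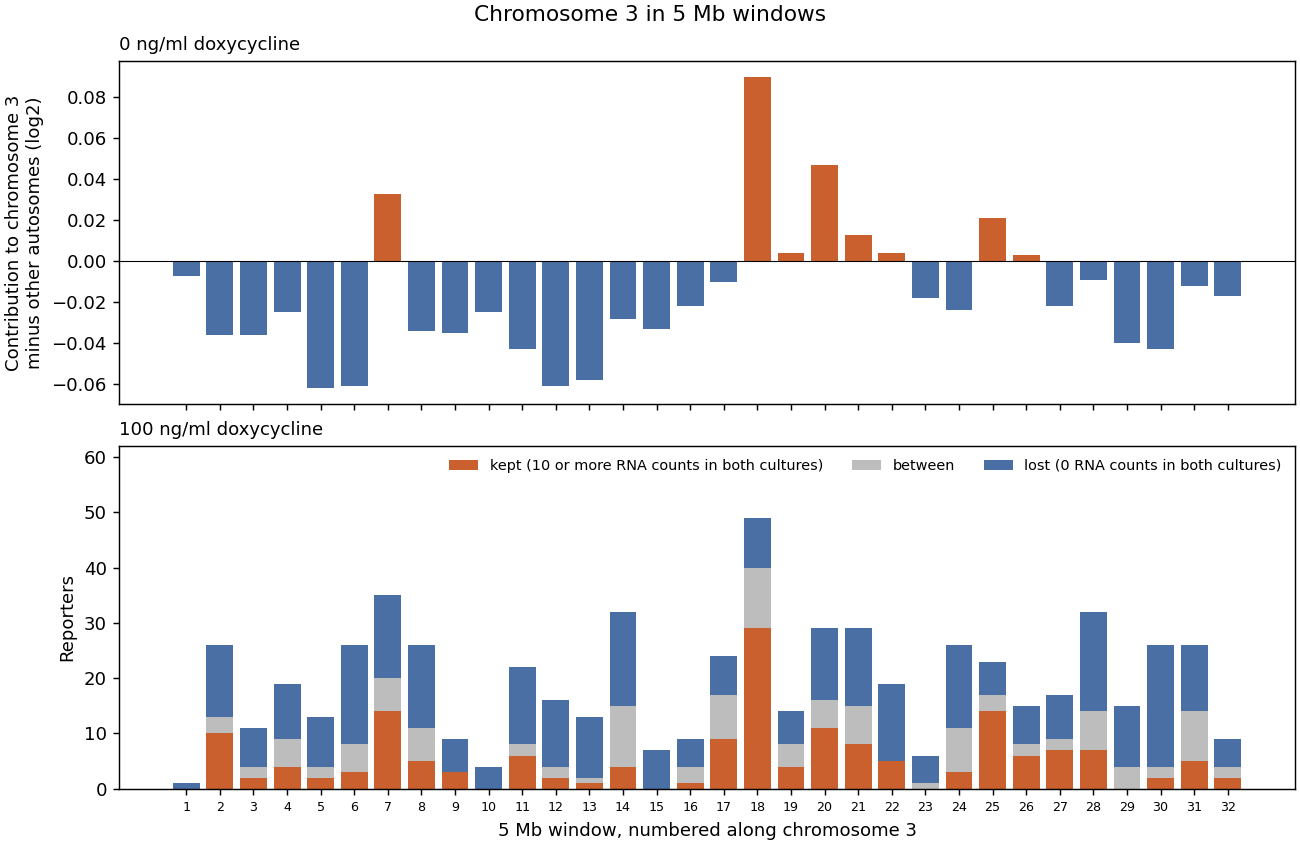
Upper panel, contribution of each 5 Mb window (numbered along the chromosome) to the difference between chromosome 3 and the other autosomes at 0 ng/ml, in log2 units. Lower panel, number of reporters per window that kept RNA, fell between or lost RNA at 100 ng/ml. Window 18 has the tallest bar in both panels, with 0.090 and 29 of 49 reporters kept.

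Of the 5 highest reporters without dox, 4 lay in the last 2 of these windows. In pool C the reporter at 95089016 had 2199 and 2040 RNA counts, but its DNA counts were 279 and 12, so its level of 5.53 had an SD of 2.87 between the cultures. In pool B the reporter at 30491498 had 2628 and 2805 RNA counts over 323 and 270 DNA counts, a level of 3.91 ± 0.26 (SD, n = 2 cultures). In the same pool 95975609 had 5496 and 6243 over 586 and 748, a level of 3.85 ± 0.10. The last 2 barcodes also occurred in another pool.

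Levels changed steeply in places near domain borders. Comparing 9 reporters on either side of each gap, the largest step lay between 79077187 and 79332276, where the mean rose from -3.19 ± 1.71 to 0.60 ± 1.90 (SD over 9 reporters). Between 120995099 and 121030360, only 35.3 kb apart, it rose from -1.80 ± 1.21 to 1.81 ± 1.21. By the rule, the low domains next to these steps ended at 79332276 and 120910993, so the steps lie near the borders and not exactly at them. These steps were picked for their size.

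Domains were drawn from 3 pools and measured in the fourth, which removes the dependence on the measured levels, though not on the choice of the chromosome. Inside minus outside was -2.35 in pool A, -1.99 in pool B, -1.27 in pool C and -1.65 in pool D without dox. The mean was -1.82 ± 0.46 (SD, n = 4 pools), and all 4 pools were lower inside. Since levels without dox chose the chromosome, this is a description.

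The same held-out domains were read at the other doses. Inside minus outside averaged -2.09 ± 0.28 at 0.01 ng/ml and -2.36 ± 0.50 at 0.1 ng/ml (SD, n = 4 pools). At 100 ng/ml it was -1.11, -2.37, -0.59 and -1.54 in pools A to D, a mean of -1.40 ± 0.75 (exact two-sided sign-flip permutation p = 0.125, adjusted p = 0.219). The share of reporters with RNA kept was 17.5% ± 2.96 inside and 31.3% ± 9.85 outside (SD, n = 4 pools), a difference of -13.9 percentage points that ranged from -27.9 in pool B to -1.54 in pool C (exact two-sided sign-flip permutation p = 0.125, adjusted p = 0.219). At 100 ng/ml 71.1% ± 4.21 inside and 46.1% ± 4.71 outside had no RNA count in either culture (SD, n = 4 pools). The levels of those reporters follow from their DNA counts and the added count. DNA abundance was slightly higher inside in all 4 pools, by 0.10 ± 0.04 on the log2 scale, and its part in these differences was not tested.

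**Figure D4:**
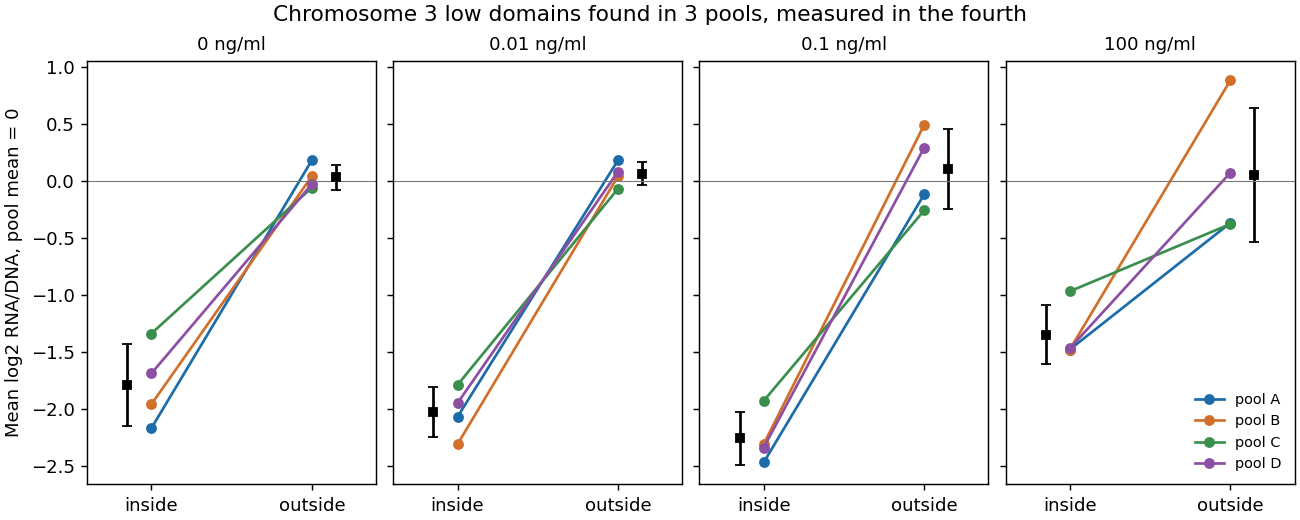
Mean level (log2 RNA/DNA, pool mean set to 0) of reporters inside and outside low domains that were drawn from the other 3 pools, at each dose. Lines join the values of 1 pool and black squares are the mean ± SD of 4 pools. Every line rises from inside to outside, and the spread outside widens from 0.11 at 0 ng/ml to 0.59 at 100 ng/ml.

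Reporters close together resembled each other across pools. For pairs from different pools, the correlation of levels without dox was 0.512 over 44 pairs under 10 kb apart, 0.347 over 254 pairs at 10 to 100 kb and 0.265 over 2202 pairs at 100 kb to 1 Mb. The values at 100 ng/ml were 0.453, 0.323 and 0.113. Pairs share reporters and libraries, so these are descriptions.

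Dox lowered RNA relative to DNA at 329 chromosome 3 reporters and raised it at 65 at the highest dose, with the scaling used. Changes of RNA relative to DNA were tested in edgeR's quasi-likelihood model with Benjamini-Hochberg adjustment over all reporters. At 100 ng/ml, 329 of 628 were lower than without dox (52.4%), against a background of 50.4% of all 10785 reporters, and 65 were higher (10.4%), against 10.9%. At 0.1 ng/ml 137 were lower (21.8%, background 19.8%) and 44 were higher (7.01%, background 9.04%). Without the 38 reporters whose barcode occurred in another pool, a setting chosen after the data were seen, 310 were lower (52.5%, background 50.6%) and 60 higher (10.2%, background 11.0%) at 100 ng/ml.

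These directions are relative to the other reporters in a library, since a fall shared by all is not measured. The median change of all reporters at 100 ng/ml was -4.12 with the scaling used and -4.83 or -5.15 under the alternatives, and that of chromosome 3 was -5.20, -5.68 and -5.85. With those alternatives, DESeq2 size factors and library totals, the 65 higher reporters became 33 (5.25%, background 7.18%) and 27 (4.30%, background 5.76%). The 137 lower reporters at 0.1 ng/ml became 201 (32.0%, background 30.5%) and 215 (34.2%, background 33.7%). The 44 higher ones became 21 (3.34%, background 5.02%) and 16 (2.55%, background 4.39%), and 23 in the DESeq2 test (3.66%, background 6.24%). Leaving out dox 0 replicate 1 or 2 reduced the 65 to 32 (5.10%, background 7.83%) or 38 (6.05%, background 7.80%). It reduced the 137 to 83 (13.2%, background 11.7%) or 82 (13.1%, background 11.6%), and the 44 to 17 (2.71%, background 5.42%) or 22 (3.5%, background 5.35%). The share of higher reporters on chromosome 3 was below the background in each of these settings, and that difference was not tested.

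At 0.01 ng/ml edgeR called 0 of 628 reporters, against a background of 0.0%. At an unadjusted p under 0.05 there were 37 on chromosome 3 (5.89%) and 532 in all (4.93%), and DESeq2 called 10 (1.59%, background 0.936%). Levels at 0.01 ng/ml ranked the reporters much as without dox (Spearman's rho 0.938 over 628 reporters). At 0.1 ng/ml rho was 0.787 and at 100 ng/ml 0.478, while the 2 cultures had a Pearson r of 0.902 without dox and 0.751 at 100 ng/ml.

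The share of chromosome 3 reporters with no RNA count in either culture rose from 0.692% ± 0.613 without dox to 24.1% ± 4.23 at 0.1 ng/ml and 53.3% ± 3.16 at 100 ng/ml (SD, n = 4 pools). On other autosomes it was 0.234% ± 0.125, 17.8% ± 1.78 and 47.7% ± 2.22. Inside low domains the share at 0.1 ng/ml was already 42.7% ± 4.50, against 14.0% ± 4.92 outside. Reporters inside also had less RNA to lose, with medians of 47.0 to 64.25 counts per pool without dox against 224 to 416 outside, so a 0 there is nearer to the limit of counting.

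At 100 ng/ml the gap between chromosome 3 and the other autosomes was no longer alike in the pools. It was -0.72 in pool A, 0.30 in pool B, -0.63 in pool C and -0.40 in pool D, with a mean of -0.36 ± 0.46 (SD, n = 4, exact two-sided sign-flip permutation p = 0.25, adjusted p = 0.35). Pool B alone lay above 0. The mean was -0.58 without it, and -0.25, -0.27 and -0.35 without pool A, C or D. The share kept was 25.2%, 37.8%, 21.3% and 25.7% in pools A to D, against 30.4%, 30.9%, 28.9% and 27.6% on other autosomes. The difference of -1.95 ± 6.36 percentage points (SD, n = 4 pools) was smaller than the spread between pools (exact two-sided sign-flip permutation p = 0.5, adjusted p = 0.5), and it was -4.91 without pool B. It was -0.863, -0.0686 and -1.97 without pool A, C or D, and -3.93 and -2.87 without replicate 1 or 2.

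A few reporters carried most of the remaining RNA. The 5 highest in each pool held 21.5% to 38.0% of the chromosome's RNA without dox and 60.1% to 85.1% at 100 ng/ml. In pool B the chromosome's share of the library's RNA at 100 ng/ml was 1.32 times its share of DNA, and 0.851 times without the reporter at 133205607. In pool D the values were 0.538 and 0.295, without 9112108.

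RNA was kept at 169 reporters (26.9%) and lost at 336 (53.5%), with 123 between (19.6%). Over all 10785 reporters these shares were 29.1%, 48.4% and 22.6%. Of the 123, 115 had RNA in 1 culture only. Kept reporters had a median level of 1.12 without dox and a median of 426.0 DNA counts at 100 ng/ml, against -1.30 and 272.5 for lost ones. On other autosomes the same medians were 1.30 and 390.75 for kept reporters and -0.59 and 268.75 for lost ones. More DNA template thus went with keeping RNA, and its part was not tested. Inside low domains 29 of 219 kept RNA, and outside 140 of 409.

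Some kept sites stood in rows. Along the chromosome, 9 rows of at least 4 kept neighbours, found after the values were seen, held 50 of the 169 kept reporters, and 119 lay outside them. From 8935610 to 9237398, 6 reporters from 3 pools kept RNA, 3 of them higher at 100 ng/ml. From 86637881 to 87267871 and from 89614411 to 89944764, both in the highest window, 8 reporters each kept RNA. From 132985498 to 133205607, 4 reporters from 2 pools kept RNA, with a mean level of -0.05 without dox and 6.93 at 100 ng/ml.

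The highest reporter at 100 ng/ml, in pool A at 135208579, had 932 and 1150 RNA counts without dox and 22301 and 24751 at 100 ng/ml. Its DNA counts were 216 and 97, then 346 and 167. The log2 change was 5.38 ± 0.88 (SE, edgeR adjusted p = 0.000378). Both cultures were far above both cultures without dox. A pool D reporter on the same strand only 1090 bp away, at 135209669, had 0 and 218 RNA counts at 100 ng/ml and a level of -0.39.

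In the last of these rows, the pool B reporter at 133178175 had the largest fitted rise among sites with at least 10 RNA counts in all cultures compared. Its RNA counts were 751 and 680 without dox, 1185 and 1344 at 0.01 ng/ml, 10141 and 8950 at 0.1 ng/ml and 11146 and 16222 at 100 ng/ml. The log2 change at 100 ng/ml was 6.86 ± 0.55 (SE, edgeR adjusted p = 3.38e-06). In the same pool 133205607 went from 1451 and 1549 to 20101 and 27762, a change of 6.00 ± 0.56 (edgeR adjusted p = 8.68e-06). Pool A had a kept reporter between other sites of this row, at 133148939, with 78 and 68 counts becoming 126 and 442 and a change of 3.89 ± 0.89 (edgeR adjusted p = 0.00316). Not every neighbour did so, as the pool B reporter at 132959830 fell from 137 and 132 counts to 0 and 0.

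The pool D reporter at 9112108 had 1144 and 1409 RNA counts without dox and 16422 and 20751 at 100 ng/ml, over DNA counts of 1543 and 1147, then 1147 and 1063. The log2 change was 5.94 ± 0.27 (SE, edgeR adjusted p = 2.07e-07). A pool C reporter 8323 bp away, at 9120431, had 2768 and 2946 RNA counts in the cultures without dox. At 100 ng/ml it had 2898 and 2137, a log2 change of 1.41 ± 0.50 (SE, edgeR adjusted p = 0.0288). Scaled by library totals alone, its RNA/DNA ratios were 5.13 and 6.03 without dox and 8.17 and 6.27 at 100 ng/ml. Whether its call depends on the scaling was not tested. Here sites from different pools were both high at 100 ng/ml.

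**Figure D5:**
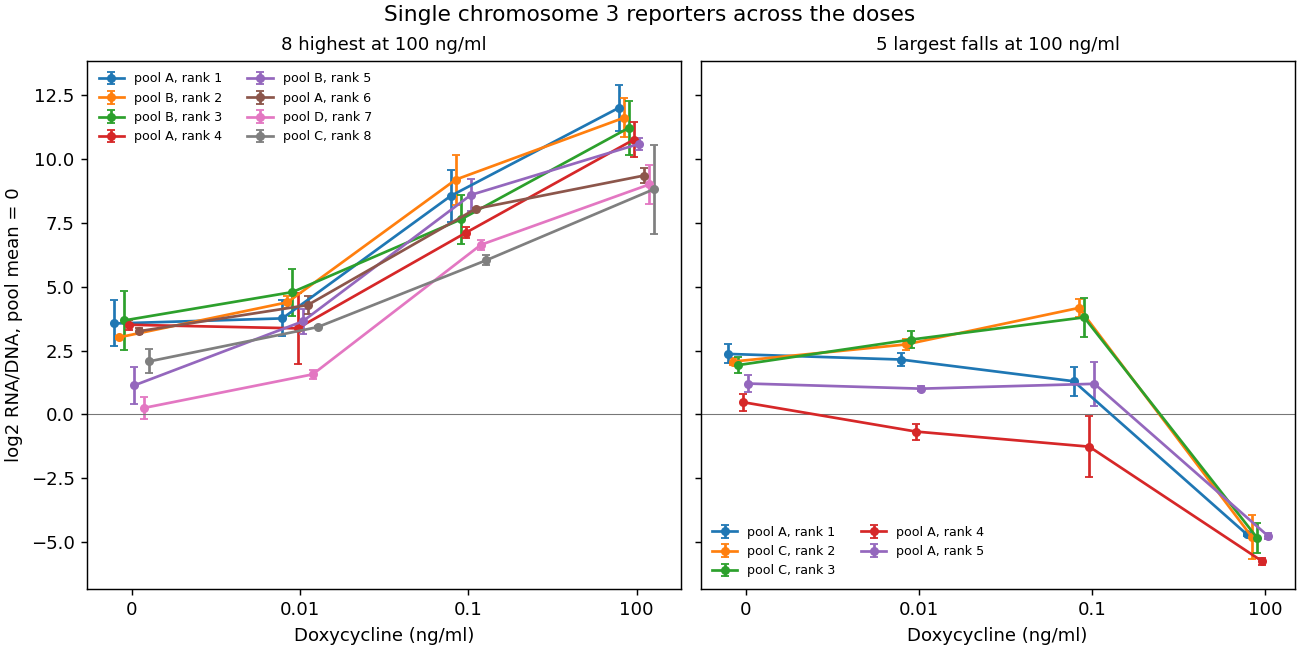
Level (log2 RNA/DNA, pool mean set to 0, mean ± SD of 2 cultures) at each dose for the 8 reporters highest at 100 ng/ml (left) and the 5 with the largest falls among those with at least 10 RNA counts in both cultures without dox (right). The left group starts between 0.26 and 3.68 and ends between 8.82 and 12.00, and the right group ends between -5.75 and -4.69.

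Some sites inside low domains gained RNA counts with dox. Of all 219 reporters inside, 20 were higher at 100 ng/ml in edgeR (9.13%) and 138 lower (63.0%). Of the 409 outside, 45 were higher (11.0%) and 191 lower (46.7%), and the background was 10.9% and 50.4%. Domains were drawn from levels without dox, which are also the baseline of these changes, so that contrast is a description. Of the 29 that kept RNA inside, 19 were higher and 0 lower. Those sites were chosen by lying in stretches low on average without dox and by having RNA at 100 ng/ml. The split is therefore a description. Without dox, 12 of the 29 lay above their own pool's mean. The pool A reporter at 63182789 had 16 and 32 RNA counts without dox, 136 and 304 at 0.1 ng/ml and 293 and 428 at 100 ng/ml. Its change at 100 ng/ml was 5.82 ± 0.73 (SE, edgeR adjusted p = 6.24e-05). The pool A reporter at 58459547 went from 2 and 13 counts to 407 and 178 at 0.1 ng/ml and 696 and 250 at 100 ng/ml. It lies in the same domain, and its change was 8.03 ± 0.96 (edgeR adjusted p = 4.58e-05). In pool C, 21976641 went from 877 and 784 to 6769 and 5297, a change of 4.18 ± 0.48 (edgeR adjusted p = 2.35e-05). The fifth largest rise among sites with at least 10 RNA counts in all cultures compared, in pool A at 41412456, had 13 and 35, then 101 and 431 RNA counts, with an adjusted p of 0.0308 in edgeR, and it passed the threshold under some settings only.

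The 5 largest falls were at sites with much RNA without dox. All 5 ended at 0 counts in both cultures at 100 ng/ml. The size of such a fall is set largely by the starting ratio, so this follows from the ranking. In pool A, 51201279 had 3114 and 3593 RNA counts without dox, 2100 and 2391 at 0.01 ng/ml, 185 and 305 at 0.1 ng/ml and 0 and 0 at 100 ng/ml. Its ratio was at least 1795-fold lower at 100 ng/ml, taking 3 counts over both cultures as the floor (edgeR adjusted p = 1.1e-06). In pool C, 68395923 had 2384 and 2829 counts without dox and 2530 and 1237 at 0.1 ng/ml. It had 0 and 0 at 100 ng/ml, at least 1145-fold lower (edgeR adjusted p = 1.54e-06). The pool C reporter at 89959879 had 3852 and 3737, then 2100 and 864, then 0 and 0 counts at these doses. Its barcode also occurred in another pool. It lies just beyond the row of 8 kept reporters that ends at 89944764.

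Other sites had already lost their RNA at 0.1 ng/ml. In pool A, 117042623 had 592 and 719 RNA counts without dox and 227 and 230 at 0.01 ng/ml. It had 0 counts in both cultures at 0.1 and 100 ng/ml, at least 522-fold and at least 494-fold lower (edgeR adjusted p = 2.56e-05 and 4.45e-06). The pool A reporters at 130502639 and 116699284 were likewise at 0 in both cultures at both doses, at least 293-fold and 225-fold lower at 0.1 ng/ml.

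On 2 occasions reporters from different pools sat 1 bp apart on opposite strands. At 100908593 and 100908594 their levels without dox were 1.71 in pool A and 1.70 in pool D. With 100 ng/ml the first had 1424 and 463 RNA counts and the second had 0 and 0. At 88128987 and 88128988 the levels without dox were 2.42 in pool D and 0.06 in pool C. The first had 222 and 96 RNA counts at 100 ng/ml and the second 33 and 0. The same site thus gave different outcomes at 100 ng/ml in different pools, and pool and strand cannot be told apart in these pairs.

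At the minimum of 10 DNA counts, the 3 reporters just inside had a lowest DNA count of 10 and the 5 just outside had 9. Those just inside had 1 to 36 RNA counts without dox, and those just outside 11 to 110. All 8 had 0 RNA counts in both cultures at 100 ng/ml.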

How the data were processed

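The data were 64 RNA or DNA barcode libraries (4 pools, 4 doses, 2 cultures) and 16 mapping libraries, used here only through the deposited positions. The authors deposited read counts per barcode, not normalized, per the file headers. Bowtie2 2.0 and mm9 are named, without a role, in the submitters' processing notes; nothing used here describes the barcode filtering. Reads carry no molecular identifiers, so floors cover counting error only.

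Reporters needed 10 DNA counts in all 8 DNA libraries of their pool. RNA against DNA was tested per pool over 16 libraries in edgeR 4.0.16 (R 4.3.3), with a term for the dose-by-assay interaction, TMM factors computed separately for RNA and DNA, and Benjamini-Hochberg adjustment over all 10785 reporters at 0.05. The SE given is the absolute log2 change divided by the square root of F. The code was tested on simulated data. DESeq2 1.42.0, other scalings, DNA minimums and left-out cultures were alternatives. Levels and domains were computed in Python 3.11.15 with numpy 2.4.6 and pandas 2.3.3. Comparisons between chromosome 3 and other autosomes left out X and Y.

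Replicate numbers mark a shared culture per the labels. Deviations of same-numbered cultures between doses had correlations of -0.0461 to 0.0464 over 24 pairs of doses within pools. Named reporters are the extremes in level or change by dose, the highest and lowest in each of 5 domains, and near pairs. Rows of kept sites, steps in level, the 2 sites 1 bp apart and single neighbours were picked after their values were seen. The chromosome, domains and lists were chosen with earlier results of these data known. The held-out tests of dox 100, kept share and DNA were also added later. Values without 1 pool, without shared barcodes and with other domain settings were chosen after seeing the data. The table had 0 unused columns of sample values.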

Additional observations from a re-analysis of the deposited data

Results flagged for a closer look

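Of 30 sets of 4 pool values checked for a pool far from the rest, 1 stood out, where chance would mark about 1 in 20. DNA abundance inside minus outside the held-out low domains was 0.16 in pool A on the log2 scale and 0.08 in each other pool.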

How the results depend on the processing

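With the replicate number as a block, 315 were lower (50.2%, background 48.7%) and 53 higher (8.44%, background 10.2%) at 100 ng/ml. At 0.1 ng/ml 121 were lower (19.3%, background 17.2%) and 38 higher (6.05%, background 8.04%). At 0.01 ng/ml 0 were called (background 0.0%), and each count was within 1.5 times the unblocked count. Higher reporters at 100 ng/ml numbered 33 with DESeq2 size factors (5.25%, background 7.18%) and 27 with library totals (4.3%, background 5.76%). The DESeq2 test called 43 higher (6.85%, background 8.19%). Without 1 culture they numbered 32 to 56 (5.1% to 8.92%, background 7.8% to 9.75%). At 0.1 ng/ml, lower reporters numbered 215 with library totals (34.2%, background 33.7%) and 245 with the DESeq2 test (39.0%, background 39.0%). With a DNA minimum of 100 they numbered 91 (20.4%, background 19.1%). Without 1 culture they numbered 82 to 182 (13.1% to 29.0%, background 11.6% to 25.5%). Higher ones numbered 21 (3.34%, background 5.02%) with DESeq2 size factors and 16 (2.55%, background 4.39%) with library totals. The DESeq2 test gave 23 (3.66%, background 6.24%). Without 1 culture they numbered 17 to 41 (2.71% to 6.53%, background 5.35% to 8.16%). The DESeq2 test called 10 reporters at 0.01 ng/ml (1.59%, background 0.936%). The lower count at 100 ng/ml stayed within 1.5 times 329 in all alternatives run. A DNA minimum of 100 tests fewer reporters. For the other changes the cause was not tested.

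The gap to other autosomes without dox was -0.58 and -0.50 with pseudocounts of 0.1 and 5, -0.71 over means of 1 Mb blocks, -0.48 for medians and -0.57 to -0.51 without 1 replicate. The contribution of low domains was -0.78 and -0.67 with those pseudocounts, -0.79 and -0.67 with running means over 5 and 15 reporters, -0.86 and -0.59 with thresholds of -0.5 and -1.5, and -0.78 to -0.73 without 1 replicate. Alternatives were read for 18 named reporters, the highest at 100 ng/ml and those with the largest rises and falls. Of their 194 alternative values, 188 kept their direction and side of the threshold. The other 6, all for pool A at 41412456, kept their direction and missed the threshold. Other reporters given with an adjusted p, such as 9120431, 58459547 and 21976641, were not among the 18. RNA medians of 0 at 100 ng/ml limit what can be said of lost sites.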
